A study of Mus musculus with 8 samples.

Results

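Among the regions of open chromatin that every library shared, 1440 stepped with the virus, being strongest with Ezh2-Y726D, intermediate with GFP and weakest with Ezh2. Peaks of the 8 lists that shared at least 1 bp on chromosomes 1 to 19 were merged into 186387 regions, and 68278 of these held a peak of every list. In each list a region took its highest fold, the ratio of the read pileup at the peak's summit to the background around it, written as a percentile among all peaks of that list. A region was kept when both Ezh2-Y726D percentiles exceeded every GFP percentile and every GFP percentile exceeded every Ezh2 percentile. The 1440 regions were therefore chosen by these values, and the order of the groups is a description of the choice, with no test. They were 2.11% of the shared regions, and 1538 regions, or 2.25%, stood in the reverse order. The balance of both orders depended on the scale, with 2334 stepping and 836 in the reverse order by the fold itself, and 1340 and 1008 with lists cut to equal length.

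The samples were retinal ganglion cells (RGCs), the neurons whose axons form the optic nerve, of adult C57BL/6J mice of both sexes. AAV2, a virus that also enters other retinal cells, carried GFP in 3 samples, which were the controls, Ezh2 in 3 and Ezh2-Y726D in 2. The optic nerve of all groups was crushed 2 weeks after the virus, and RGCs were isolated 3 days after the crush by sorting living cells with the surface protein CD90.2 (Thy1), 50000 per library, for ATAC-seq, in which a transposase inserts adapters into open DNA. CD90.2 is also carried by T cells, and nothing states whether a library came from separate animals, so p-values measure only the spread between these samples.

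Ezh2 is the catalytic subunit of Polycomb repressive complex 2, which methylates histone H3 at lysine 27 and keeps developmental genes silent. Ezh2-Y726D lacks that activity. A catalytically dead form can still enter the complex, so a comparison of GFP with both forms asks which changes of chromatin go with the enzyme's activity. A fold has a numerator and a denominator: it rises when more reads pile up at the summit, and also when fewer reads lie around it.

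The sequence of whole regions was not analysed here, but 368 promoter windows of 313 genes (RefSeq, GRCm38.p6, from 250 bases before to 50 after a gene's start) overlapped a stepping region. Shown are the 250 bases before the start for promoters in the leading regions and for Coro1a and Junb, which stand for the leukocyte and the regeneration genes below. Capitals mark matches, on either strand, to 24 motifs searched. The Cd180 window, chr13:102693297-102693546 on the plus strand, held none. Trim69 (chr2:122160458-122160707, plus, its last 84 bases in the region) held the nuclear receptor motif AGGTCA overlapping GGAATG, the TEAD motif, on the other strand. Slc6a16 (chr7:45240503-45240752, plus) held TAATTA, the core of homeodomain sites, and 1700019J19Rik (chr9:14089827-14090076, plus) held ACAAAG, a SOX motif. Coro1a (chr7:126704817-126705066, minus) held the GC box GGGCGG and the E-box CAGATG on the other strand, and Junb (chr8:84978749-84978998, minus) held the E-box CAGCTG.
Cd180: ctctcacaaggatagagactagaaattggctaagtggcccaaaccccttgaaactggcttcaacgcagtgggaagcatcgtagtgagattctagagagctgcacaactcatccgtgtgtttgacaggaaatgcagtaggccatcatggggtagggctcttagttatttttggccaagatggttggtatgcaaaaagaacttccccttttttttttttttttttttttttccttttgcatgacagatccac
Trim69: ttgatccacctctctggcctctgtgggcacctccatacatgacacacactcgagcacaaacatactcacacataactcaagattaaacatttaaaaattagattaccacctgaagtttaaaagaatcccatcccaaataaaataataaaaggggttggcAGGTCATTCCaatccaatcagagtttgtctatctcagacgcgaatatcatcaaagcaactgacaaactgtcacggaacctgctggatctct
Slc6a16: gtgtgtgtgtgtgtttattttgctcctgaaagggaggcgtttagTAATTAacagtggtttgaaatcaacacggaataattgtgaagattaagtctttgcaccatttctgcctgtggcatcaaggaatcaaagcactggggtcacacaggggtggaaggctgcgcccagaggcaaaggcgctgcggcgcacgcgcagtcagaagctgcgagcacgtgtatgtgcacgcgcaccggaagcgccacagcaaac
1700019J19Rik: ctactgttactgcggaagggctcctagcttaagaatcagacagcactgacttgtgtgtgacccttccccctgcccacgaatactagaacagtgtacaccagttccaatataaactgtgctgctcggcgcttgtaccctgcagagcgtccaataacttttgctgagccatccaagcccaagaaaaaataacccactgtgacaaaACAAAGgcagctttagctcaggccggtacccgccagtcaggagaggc
Coro1a: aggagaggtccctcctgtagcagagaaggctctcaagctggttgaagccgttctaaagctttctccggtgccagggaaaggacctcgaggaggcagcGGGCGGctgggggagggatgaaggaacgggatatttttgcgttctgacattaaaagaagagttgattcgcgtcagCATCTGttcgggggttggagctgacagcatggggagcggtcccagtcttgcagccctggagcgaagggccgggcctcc
Junb: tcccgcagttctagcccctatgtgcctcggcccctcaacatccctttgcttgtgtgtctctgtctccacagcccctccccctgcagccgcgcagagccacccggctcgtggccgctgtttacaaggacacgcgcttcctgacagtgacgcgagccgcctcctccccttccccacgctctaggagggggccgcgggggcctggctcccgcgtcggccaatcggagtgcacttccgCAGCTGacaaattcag

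Over the full windows, promoters in stepping regions resembled those of all 15237 promoters in shared regions. Median GC content was 61.8% against 61.3%, and the median number of CpG was 21 in both. NF-kappaB, the motif of an inflammatory factor, was matched in 8.42% of them against 5.49% of promoters in shared regions and 4.57% of 31396 promoters in all. GGGCGG was matched in 64.7% against 62.7% and 36.0%, and TGANTCA, the AP-1 motif of Fos and Jun, in 5.16% against 4.86% and 7.84%. These shares describe letters in windows and carry no test.

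The steps were mostly small. Median fold percentiles over the 1440 regions were 71.2, 71.7 and 73.9 in the GFP samples, 49.2, 51.5 and 51.8 in the Ezh2 samples, and 85.3 and 85.8 in the Ezh2-Y726D samples. The same medians over all shared regions lay between 66.7 and 71.8 in the 8 lists. From the highest GFP to the lowest Ezh2-Y726D percentile the median gap was 3.56 points, and from the highest Ezh2 to the lowest GFP percentile it was 4.70 points. The smaller of both gaps, called the smaller gap below, had a median of 2.12 points and reached 20 points in 8 regions, 10 points in 88 and 5 points in 329. Regions just inside the rule lay at Ruvbl1 and in Klhl3 with smaller gaps of 0.00199 and 0.00544 points, and those just outside lay in Cdk8 and nearest to Pex2 with -0.00082 and -0.000829 points.

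For scale, both Ezh2-Y726D percentiles exceeded every GFP percentile in 21.2% of all shared regions, and every GFP percentile exceeded every Ezh2 percentile in 11.5%. limma, fitted to normal scores of the ranks of all 68278 regions, called Ezh2-Y726D above GFP in 3.58% of them, Ezh2 below GFP in 2.86% and Ezh2-Y726D above Ezh2 in 7.01% (Benjamini-Hochberg adjusted). Among the stepping regions 12.5%, 27.7% and 82.2% were called, and since the rule used the same values nothing is read from these shares.

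The 12 regions with the largest smaller gap lay in or near Panx1, Litaf, Tnfrsf1b, Grm4, Kcnn4, Itpkb, Plekhg6, Zcchc2, Mctp2, Fam174a, Sla and 1700019J19Rik, 8 of them inside genes and 4 between protein-coding genes. Several of these genes are best known from leukocytes. Tnfrsf1b encodes a receptor for tumour necrosis factor, Kcnn4 a calcium-activated potassium channel of blood cells, Itpkb a kinase of inositol trisphosphate needed for lymphocyte development, and Sla an adaptor that dampens antigen receptor signalling.

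The first region, in Panx1 (chromosome 9, 15015399 to 15016086), which encodes a channel that releases ATP, had fold percentiles of 52.3, 58.8 and 50.3 with GFP, 18.3, 16.6 and 14.9 with Ezh2, and 87.9 and 89.8 with Ezh2-Y726D. The groups stood 29.1 points apart at the nearer step. The pileup at the summit did not follow this order. It was 39, 41 and 46 reads with GFP, 50, 47 and 47 with Ezh2, and 36 and 45 with Ezh2-Y726D. Local background, given as a multiple of each library's genome-wide background, was 2.20, 2.39 and 2.36 with GFP, 4.29, 3.92 and 3.90 with Ezh2, and 1.25 and 1.24 with Ezh2-Y726D. At Panx1 the step of the fold was thus a step of the surroundings in the opposite direction.

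Litaf (chromosome 16, 10973899 to 10974586), a gene induced by lipopolysaccharide, had fold percentiles of 50.4, 54.6 and 53.6 with GFP, 3.77, 20.7 and 5.17 with Ezh2, and 83.1 and 86.0 with Ezh2-Y726D. Its pileups were 40, 39 and 51 reads with GFP, 31, 38 and 35 with Ezh2, and 38 and 62 with Ezh2-Y726D. Those of GFP and Ezh2-Y726D overlapped as numbers of reads, which are not scaled to a library's genome-wide background. Their percentiles within each list overlapped as well. Its local background was 2.37, 2.40 and 2.54 with GFP, 3.44, 3.05 and 3.38 with Ezh2, and 1.54 and 2.00 with Ezh2-Y726D. Here pileup was lower with Ezh2 than with GFP, and the background was higher.

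At Tnfrsf1b (chromosome 4, 145239052 to 145240004) fold percentiles were 51.2, 57.2 and 46.5 with GFP, 6.63, 20.4 and 13.5 with Ezh2, and 86.3 and 90.7 with Ezh2-Y726D. The local background there was 3.35, 3.65 and 3.76 with GFP, 5.23, 4.97 and 5.56 with Ezh2, and 2.49 and 2.48 with Ezh2-Y726D. Kcnn4 (chromosome 7, 24376939 to 24378166) had pileups of 52, 50 and 70 reads with GFP, 69, 66 and 71 with Ezh2, and 49 and 69 with Ezh2-Y726D, which overlapped as numbers of reads. As percentiles within each list they were 81.5 to 86.0 with GFP, 86.5 to 87.7 with Ezh2, and 83.6 and 87.3 with Ezh2-Y726D. On that scale GFP lay below Ezh2, and Ezh2-Y726D overlapped both. Its local background did not overlap between groups, at 2.40 to 2.84 with GFP, 4.31 to 4.84 with Ezh2, and 1.68 to 1.78 with Ezh2-Y726D.

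Of the 12 regions, 1 had pileup percentiles in stepping order, the one in Plekhg6 (chromosome 6, 125369690 to 125370527). Its pileups were 23, 20 and 28 reads with GFP, 20, 21 and 18 with Ezh2, and 28 and 29 with Ezh2-Y726D. The numbers of reads overlapped between groups. They are not scaled to a library's genome-wide background, which was 2.39 reads in Ezh2-Y726D replicate 1 and 3.74 in GFP replicate 3. Their percentiles within each list stood in order. In 10 of the 12 regions the local background stood in the reverse order without overlap.

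**Figure D1:**
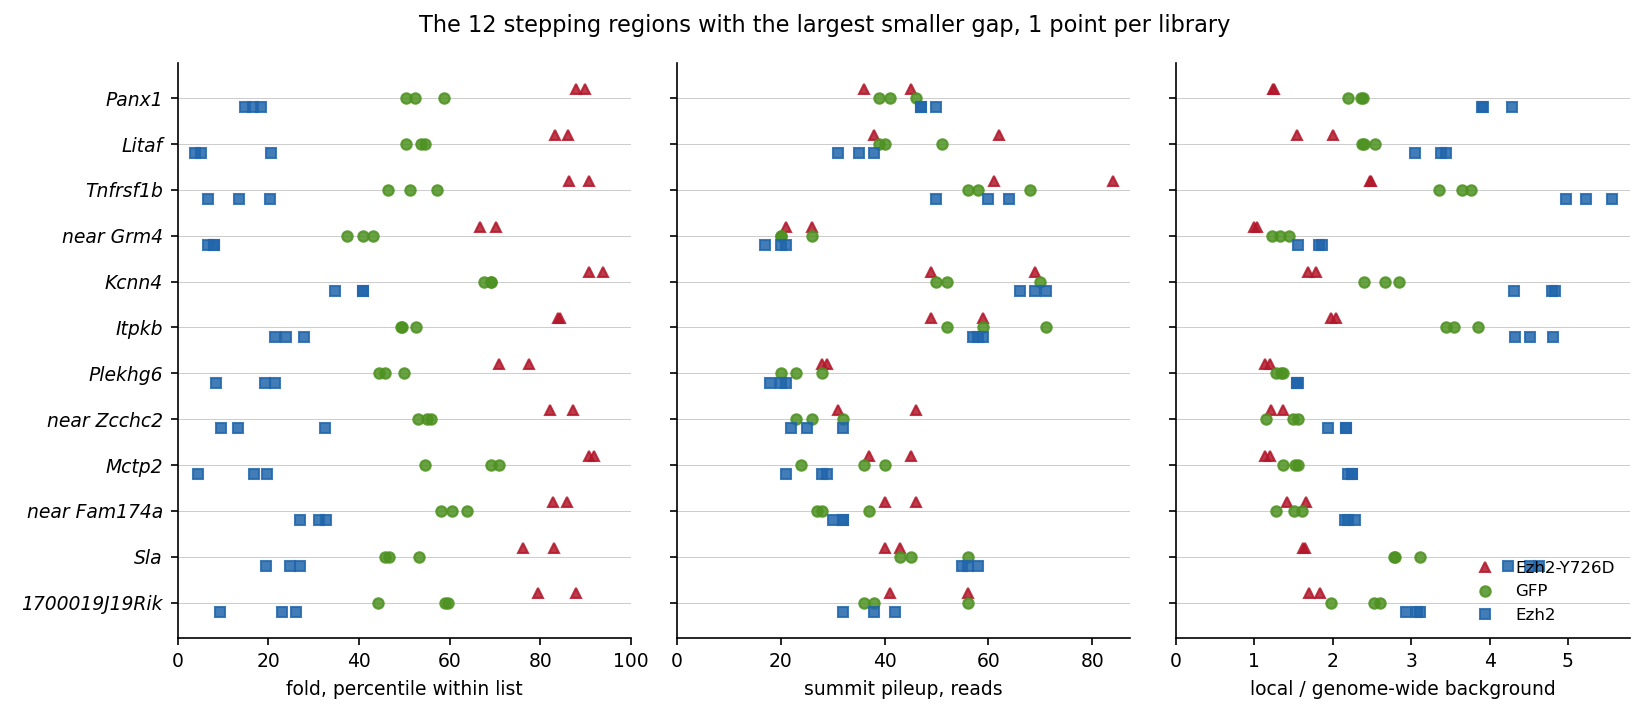
Fold as a percentile within its list (left), pileup at the summit in reads (middle) and local background as a multiple of the genome-wide background (right) in the 12 stepping regions with the largest smaller gap, 1 point per library (triangles Ezh2-Y726D, circles GFP, squares Ezh2). Fold percentiles run from Ezh2 on the left to Ezh2-Y726D on the right in every row by the rule. Pileups, as reads not scaled to a library's genome-wide background, overlap between groups in most rows. The background stands in the reverse order without overlap in 10 of 12 rows.

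To see how general this was, pileup and local background were worked out for every peak from its deposited fold and −log10 p. All peaks of all 8 lists gave a whole number of reads within 0.001 of the deposited −log10 p. Over the 1440 regions, pileup percentiles stood in stepping order in 579 (40.2%), against 2.94% of all shared regions. In another 410 (28.5%) the pileup did not step and the local background stood in the reverse order, against 5.35% of all shared regions. Neither stepped in this way in 451 (31.3%), against 91.7% of all shared regions. As these quantities make up the fold that chose the regions, the shares describe how the steps arose and are not tested. Pileup percentiles stood in the opposite order, Ezh2 highest, in 37 stepping regions (2.57%), near the 3.15% of all shared regions.

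Both kinds were present at every size of step. The pileup stepped in 4 of the 20 regions with the largest smaller gap, in 38 of the next 80, in 103 of the next 200, in 200 of the next 420 and in 234 of the last 720. The background stood in the reverse order in 14 of the first 20, in 27 of the next 80 and in 204 of the last 720.

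The 579 regions whose pileup stepped were small peaks, few of them at gene ends. Their median pileups were 27, 26 and 34 reads with GFP, 19, 20 and 21 with Ezh2, and 33 and 40 with Ezh2-Y726D, where all shared regions had medians from 33 to 44 reads. As percentiles these were 53.0, 54.9 and 58.6, then 27.1, 30.7 and 33.2, and 69.9 and 69.8. Local background was at the genome-wide level in 62.9% to 79.3% of them in the GFP and Ezh2 libraries and in 46.3% and 47.3% in the Ezh2-Y726D libraries. Of the 579, 58.0% lay between genes, 39.6% inside genes and 2.42% within 1 kb of a gene end, whereas 20.2% of all shared regions lay at a gene end.

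The 411 regions with the background in reverse order, 1 of which also stepped in pileup, were of another kind. Their median pileups were higher, 64, 61 and 79 reads with GFP, 73, 73 and 76 with Ezh2, and 56 and 64 with Ezh2-Y726D. Median local background was 2.65, 2.78 and 2.94 times the genome-wide level with GFP, 3.96, 3.68 and 3.87 times with Ezh2, and 1.99 and 2.02 times with Ezh2-Y726D. Over all shared regions it ran from 1.47 to 1.63 times in the 8 lists. Of the 411, 41.6% lay at a gene end, 32.4% inside genes and 26.0% between genes.

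**Figure D2:**
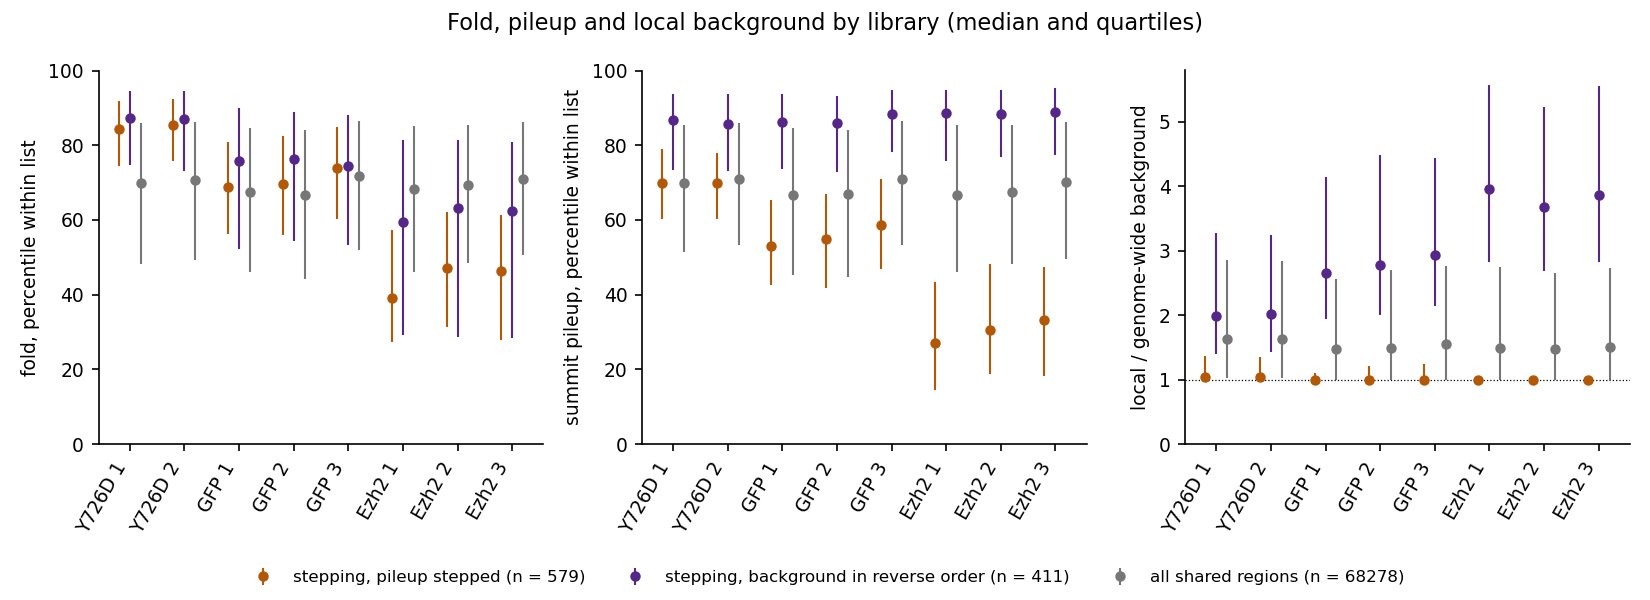
Medians (points) and quartiles (bars) by library of the fold percentile (left), the pileup percentile (middle) and the local background as a multiple of the genome-wide background (right), for the 579 stepping regions whose pileup stepped, the 411 with the background in reverse order, and all 68278 shared regions. Both kinds step in fold by the rule, the first with pileup medians from 27.1 to 69.9 at a background near 1, the second with level pileup and a background that falls from Ezh2 to Ezh2-Y726D.

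The largest steps that held in both fold and pileup were named after the values were seen. The first lay on chromosome 16 from 86694271 to 86695013, between genes and nearest to N6amt1. Its pileups were 23, 19 and 26 reads with GFP, 17 in each Ezh2 sample, and 28 and 33 with Ezh2-Y726D, at the genome-wide background in all 8 libraries. Relative to that background they were 7.08, 7.07 and 6.96 with GFP, 5.49, 5.10 and 4.74 with Ezh2, and 11.7 and 10.6 with Ezh2-Y726D. Exact 95% Poisson intervals, which cover counting error only, ran from 9.90 to 27.2 for 17 reads and from 22.7 to 46.3 for 33, so single libraries overlapped at this depth. A region on chromosome 1 from 35919734 to 35920790, nearest to Hs6st1, had 23, 24 and 27 reads, then 14, 19 and 16, and 35 and 37, without overlap. In St3gal6 (chromosome 16, 58512370 to 58513279), which encodes a sialyltransferase, pileups were 20, 21 and 26, then 15, 16 and 15, and 26 and 31 reads. Those of GFP and Ezh2-Y726D touched as numbers of reads. Relative to the genome-wide background they did not, with at most 7.82 with GFP and at least 9.93 with Ezh2-Y726D.

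At gene ends, regions with the largest smaller gap lay at Fgr, Slc6a16, Cd180, Gpr171, Trim69 and Podnl1. Fgr encodes a Src family kinase of myeloid cells, and Cd180 a Toll-like surface protein of B cells and myeloid cells. The pileup percentiles of these regions did not step. The Cd180 region, which holds the promoter shown above, had fold percentiles of 66.1, 66.0 and 62.8 with GFP, 47.4, 48.9 and 44.4 with Ezh2, and 90.4 and 90.7 with Ezh2-Y726D. Its pileups were 39, 37 and 46, then 42, 35 and 37, and 36 and 47 reads, and overlapped. As percentiles within each list those of Ezh2-Y726D, 73.5 and 76.4, lay just above the others, which reached 73.3. Its background was 1.82 to 2.00 with GFP, 2.00 to 2.56 with Ezh2, and 1.15 and 1.26 with Ezh2-Y726D, so that GFP and Ezh2 met at this rounding. At Trim69 the background fell to the genome-wide level in both Ezh2-Y726D libraries, from 1.47 to 1.74 with GFP and 2.29 to 2.76 with Ezh2.

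A total of 871 protein-coding genes had a stepping region in the gene or within 1 kb of it, 811 of them 1 such region. Lrrfip1, Itpkb, Hivep2 and Grid1 had 3 each. The Lrrfip1 region from 91052527 to 91054107 on chromosome 1 had at most 144 reads with GFP, 148, 140 and 154 with Ezh2, and 76 and 93 with Ezh2-Y726D, in the opposite order to the fold by percentile. Its local background was 5.02, 5.42 and 6.13 with GFP, 8.47, 7.29 and 7.76 with Ezh2, and 3.36 and 3.74 with Ezh2-Y726D. Here summit and surroundings were both highest on average with Ezh2.

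In Grid1, which encodes a glutamate receptor subunit of synapses, 3 of 31 shared regions stepped, and the pileup stepped in 2 of them. The region from 35112326 to 35113340 on chromosome 14 had pileups of 40, 38 and 56 reads with GFP, 23, 27 and 28 with Ezh2, and 44 and 58 with Ezh2-Y726D. Its local background, 2.70 to 3.16 with GFP, 2.27 to 2.46 with Ezh2 and 3.10 and 3.30 with Ezh2-Y726D, was lowest with Ezh2.

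Gene lists were counted over shared regions in or within 1 kb of their genes, beside the 2.11% that stepped and 2.25% in the reverse order over all shared regions. Most lists of retinal neurons held no stepping region, with RGC identity at 0 of 42, rod 0 of 52, bipolar cell 0 of 91 and amacrine cell 0 of 61, and 1, 4, 7 and 6 in the reverse order. Cones held 1 of 40, with 2 in the reverse order. It lay at Gngt2, where the pileup was 69, 69 and 92 reads with GFP, 62, 78 and 76 with Ezh2, and 34 and 50 with Ezh2-Y726D, lowest where the fold was highest. Polycomb subunits held 0 of 46, with 2 in the reverse order, and developmental transcription factors, classic Polycomb targets, 1 of 35, the region at Irx5, with 1 in the reverse order. Müller glia held 2 of 49 (Kcnj10 and Hes1) and 6 (12.2%) in the reverse order, and endothelial cells 2 of 34 (Erg and Pecam1) and 1 in the reverse order. Microglia and macrophages held 1 of 13, in Spi1, the gene of the myeloid factor PU.1, and T cells 1 of 34, each with 1 in the reverse order.

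By fold, neuronal lists held fewer stepping regions than regions in the reverse order. Ion channels held 2 of 282, transmitter receptors and transporters 3 of 175, presynaptic and synaptic adhesion genes 4 of 435, axon guidance genes 4 of 307 and axon growth inhibitors with their receptors 3 of 156. In the reverse order stood 12 (4.26%), 6 (3.43%), 11 (2.53%), 10 (3.26%) and 8 (5.13%). The pileup stepped in 1, 2, 4, 2 and 2 of the stepping regions, in that order, and so in all 4 of the synaptic list. Over all shared regions of these lists the balance by pileup was the other way. Pileup percentiles stood in stepping order in 8, 6, 15, 11 and 7 (2.84% to 4.49%, against 2.94% of all shared regions). They stood in the opposite order in 7, 2, 3, 9 and 3 (0.69% to 2.93%, against 3.15%). In Dlg2, which encodes a scaffold of synapses, pileups were 22, 19 and 21 reads with GFP, 17, 15 and 18 with Ezh2, and 24 and 29 with Ezh2-Y726D. In Cntn5, a contactin that joins neurons, they were 22, 21 and 25, then 16, 19 and 19, and 23 and 26 reads. In Slit1, a guidance ligand that repels axons, they were 28, 25 and 37, then 22, 22 and 23, and 45 and 44 reads, without overlap.

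Regeneration-associated genes held 3 stepping regions of 50 (6.00%) and 1 in the reverse order, and in all 3 the background, not the pileup, stepped. At Junb, an AP-1 gene of the injury response, pileups were 156, 152 and 181 reads with GFP, 163, 158 and 173 with Ezh2, and 132 and 153 with Ezh2-Y726D. Its local background was 15.9, 18.2 and 17.5 with GFP, 20.9, 18.6 and 19.7 with Ezh2, and 15.9 and 15.0 with Ezh2-Y726D. In Stat3, which carries cytokine signals to the nucleus, pileups of 77, 68 and 92, of 88, 82 and 73, and of 61 and 83 reads overlapped, while fold percentiles ran from 75.3 to 86.2 with Ezh2, from 88.9 to 92.3 with GFP and were 94.3 and 95.6 with Ezh2-Y726D.

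Leukocyte lists, added after the leading regions had been seen, held 4 of 25 for B cells (16.0%), 6 of 119 for pan-leukocyte signalling (5.04%) and 0 of 4 for neutrophils, with 1, 4 and 0 in the reverse order. In none of them did the pileup step. At Coro1a, which encodes an actin-binding protein of leukocytes, pileups were 109, 102 and 128 reads with GFP, 136, 136 and 154 with Ezh2, and 105 and 110 with Ezh2-Y726D, over backgrounds of 5.37 to 5.88, 8.26 to 8.77, and 5.19 and 4.98. In Cd37, a tetraspanin of B cells, they were 64, 61 and 65, then 67, 62 and 61, and 32 and 38 reads, lowest with Ezh2-Y726D, where the fold was highest. In Spi1 the pileup was likewise lowest with Ezh2-Y726D, with 32, 24 and 40, then 36, 27 and 33, and 16 and 19 reads. Over all 119 shared regions of the pan-leukocyte list, pileup percentiles stood in stepping order in 0 and in the opposite order in 24 (20.2%, against 3.15% of all shared regions), and the background stood in the reverse order in 46 (38.7%).

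Fewer microglia, T cell, B cell and pan-leukocyte genes had a peak within 1 kb of the gene in the Ezh2-Y726D libraries than in the others. GFP and Ezh2 libraries overlapped or were equal. Of 20 genes of microglia and macrophages, 18, 17 and 20 had a peak within 1 kb of the gene with GFP, 20, 18 and 19 with Ezh2, and 10 in both Ezh2-Y726D libraries. For 20 T cell genes the numbers were 18 in all 6 GFP and Ezh2 libraries, and 14 and 13 with Ezh2-Y726D. Of 29 pan-leukocyte genes all had a peak in the GFP and Ezh2 libraries and 25 in both Ezh2-Y726D libraries. For 20 B cell genes they were 15, 16 and 16, then 16, 16 and 17, and 14 in both. For 20 neutrophil genes they were 5, 5 and 6, then 9, 7 and 8, and 4 and 5, so that Ezh2-Y726D overlapped GFP. RGC identity genes had 19 of 20 in 6 libraries, 20 in Ezh2 replicate 3 and 18 in Ezh2-Y726D replicate 2, and rod genes, which RGCs should lack, 20 of 20 in all 8. Cone genes had 11 of 11 in the GFP and Ezh2 libraries, and 10 and 9 with Ezh2-Y726D. The fall was not limited to leukocyte genes. Of 30 developmental transcription factors, 26, 26 and 28 had a peak with GFP and with Ezh2, and 22 and 25 with Ezh2-Y726D. Other distances changed some counts. Within 3 kb, 14 microglia and macrophage genes had a peak in both Ezh2-Y726D libraries, against 18 to 20 in the others. Within 1 kb of a gene end, B cell genes with a peak numbered 10, 11 and 12 with GFP and 10 and 9 with Ezh2-Y726D, which overlapped. In bulk samples fewer cells of a type and less open chromatin per cell cannot be told apart, and the part of leukocyte content in the steps was not tested.

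**Figure D3:**
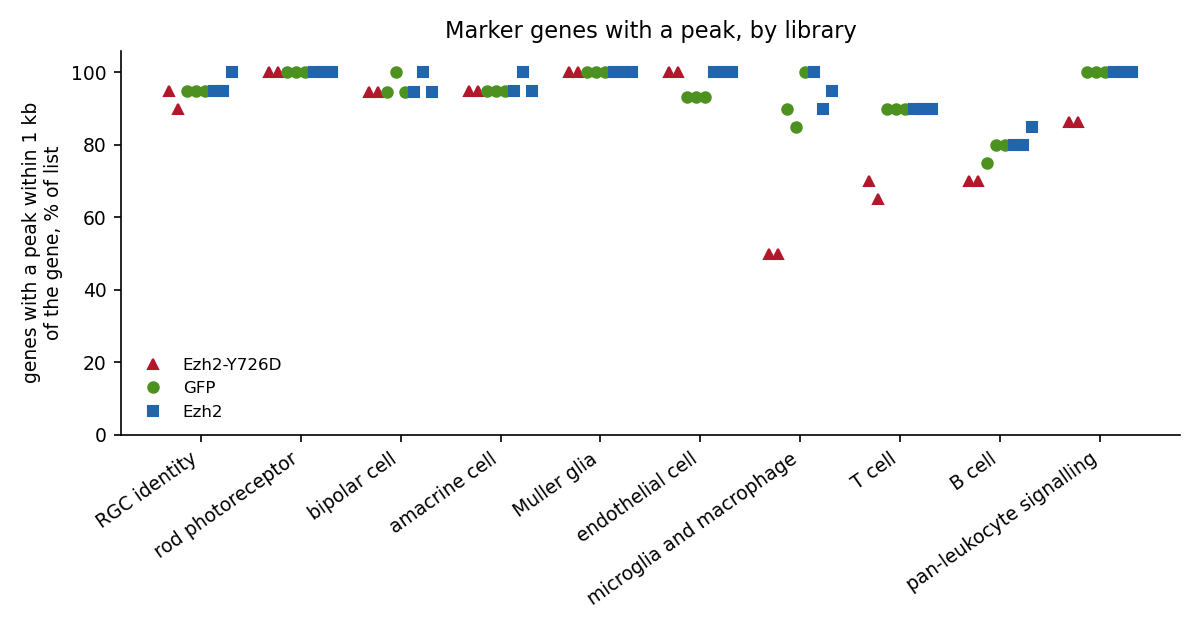
Share of the genes of each marker list with a peak within 1 kb of the gene, 1 point per library (triangles Ezh2-Y726D, circles GFP, squares Ezh2). The plotted lists of RGC, rod, bipolar, amacrine and Müller cells stay at or above 90% in every library, whereas microglia and macrophage genes fall to 10 of 20 and T cell genes to 14 and 13 of 20 in the Ezh2-Y726D libraries.

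Weaker regions around the stepping regions, which had a peak in 1 to 7 lists, were counted next. Within 10 kb lay 2585 of the 118109 such regions. The GFP lists had a peak in 39.8%, 36.9% and 55.3% of these, against 59.4%, 58.0% and 62.5% in the Ezh2 lists, and 24.7% and 30.6% in the Ezh2-Y726D lists. Set against the same share over all weaker regions of the list, this was 5.31 ± 0.425 points above with GFP (SD, n = 3), 13.8 ± 2.53 points above with Ezh2 (SD, n = 3), and -16.1 ± 1.44 points, that is below, with Ezh2-Y726D (SD, n = 2). The neighbours thus ran opposite to the fold, with the most peaks where the fold was lowest. Each pair of groups was separated without overlap, with a two-sided exact permutation p of 0.1 for Ezh2-Y726D against GFP (difference -21.4 points), for GFP against Ezh2 (-8.49 points) and for Ezh2-Y726D against Ezh2 (-29.9 points), which is the smallest p this design allows. Reads of neighbouring peaks can enter the local background of a stepping region, which is the denominator of the fold that chose it. This measure is therefore not independent of the rule. Fewer neighbouring peaks where the fold is high can follow from the choice itself, and the p-values do not test the pattern apart from it.

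The pattern weakened with distance. Within 5 kb the shares were 65.8%, 64.7% and 68.2% with Ezh2 and 15.7% and 22.0% with Ezh2-Y726D, and from 10 to 50 kb they were 50.8%, 49.7% and 55.9%, and 33.9% and 39.0%. From 10 to 50 kb around regions in the reverse order, points above all weaker regions were 3.69, 2.52 and 1.81 with Ezh2. With Ezh2-Y726D they were -4.89 and -3.21, so at that distance this direction was not particular to stepping regions. The pattern also differed by kind of region. Around regions with the background in reverse order, within 10 kb, points above all weaker regions were 8.04, 6.90 and 6.83 with GFP, 25.2, 21.6 and 19.1 with Ezh2, and -25.1 and -24.5 with Ezh2-Y726D. Around regions whose pileup stepped they were 3.46, 3.86 and 5.67, then 2.40, 4.12 and 1.26, and -4.71 and -2.49, and from 10 to 50 kb they were 0.190, 1.84 and 0.440, then -1.01, -1.29 and -2.72, and 2.88 and 4.34, in the order of the fold. Both kinds were set apart after their values were seen, and the difference between them was not tested.

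**Figure D4:**
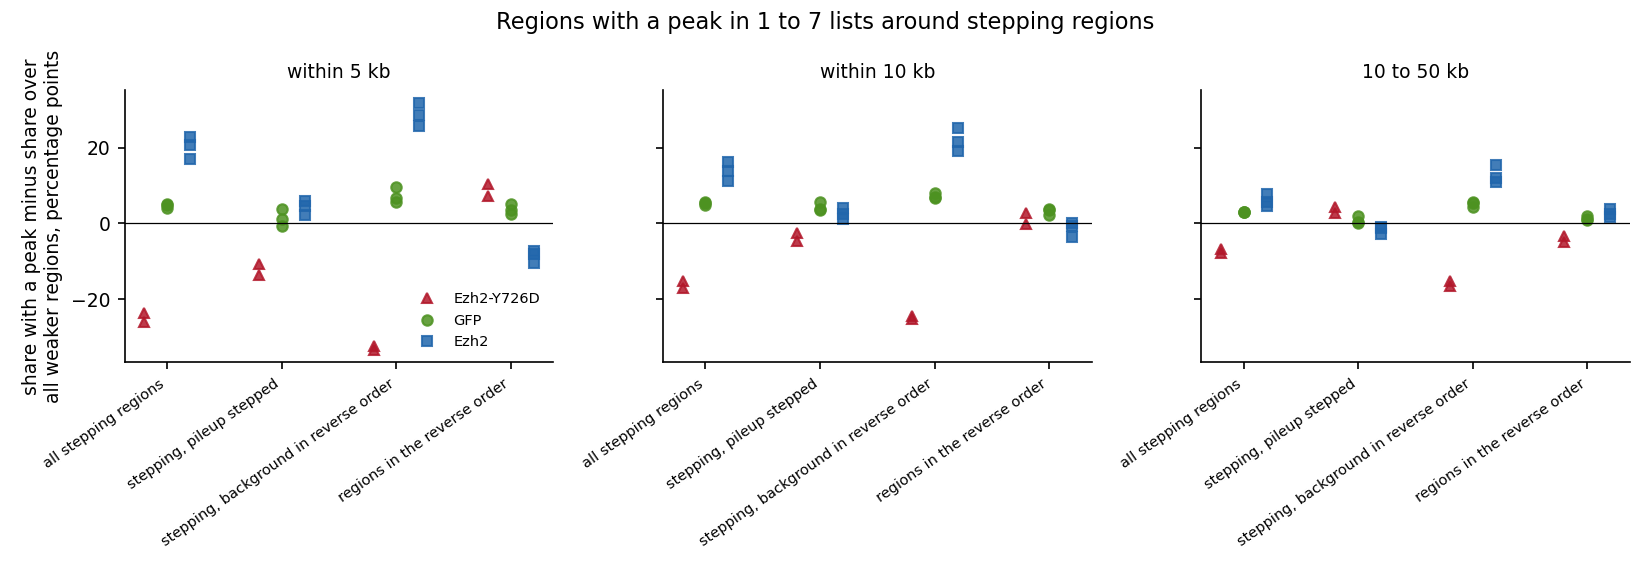
Share of weaker regions (a peak in 1 to 7 lists) with a peak in a library, minus that share over all weaker regions, in percentage points, 1 point per library (triangles Ezh2-Y726D, circles GFP, squares Ezh2), within 5 kb, within 10 kb and from 10 to 50 kb of 4 sets of regions. Around all stepping regions the Ezh2 libraries lie highest and the Ezh2-Y726D libraries lowest (within 10 kb, 13.8 and -16.1 points on average). Around regions in the reverse order the Ezh2-Y726D libraries lie highest within 5 kb and lowest from 10 to 50 kb.

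Calls were also counted in shared regions near a stepping region. Among 1139 shared regions within 10 kb that were not stepping regions, limma called Ezh2-Y726D above GFP in 3.95% and Ezh2 below GFP in 2.81%. Over all shared regions these shares were 3.58% and 2.86%. Ezh2-Y726D above Ezh2 was called in 9.13% against 7.01%. The shares over all shared regions include the 1440 stepping regions, of which 12.5%, 27.7% and 82.2% were called. They are raised by the rule itself, so the 2 sides are not alike and the differences carry no test. The last difference of 2.12 points was 3.97 points with lists of equal length, 5.24 points at a −log10 q of at least 5 and 0.409 points with the replicate number as a block. It was -0.648 points within 50 kb and between -1.04 and -0.0116 points with any 1 library left out. With 1 library left out 1997 to 2354 regions stepped and entered the share over all regions. The change of sign there can therefore not be read as a property of the neighbours. It was also not particular to stepping regions. Near regions in the reverse order, where stepping regions were not left out, Ezh2-Y726D was called above Ezh2 in 9.98% within 10 kb. Within 5 kb the share was 15.3% there, against 9.26% near stepping regions.

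Stepping regions were spread over the genome. They made up from 1.54% of shared regions on chromosome 13 to 2.59% on chromosome 17. The median distance to the next stepping region was 359212 bp, and 55 of the 1440 had another within 10 kb. By the mean fold percentile over the 8 lists, shared regions were cut into 5 equal groups, of which 1.88% stepped in the lowest, 2.40% in the middle and 1.81% in the highest. Peaks in these regions had median widths of 674, 663 and 750 bp with GFP, 515, 563 and 592 bp with Ezh2, and 754 and 796 bp with Ezh2-Y726D, against 636 to 738 bp over all shared regions.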

How the data were processed

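ATAC-seq peaks of 8 libraries were taken from the narrowPeak lists the authors deposited, called in each library separately. The submitters' processing notes name cutadapt, Bowtie2, SAMtools, Picard, MACS2 and deepTools and the build GRCm38, without versions or thresholds. The deposited values are the fold (a ratio of summit pileup to local background), the −log10 p-value, the −log10 q-value, a score (the −log10 q rescaled, not used) and the summit's distance from the peak's start. The lists held 112939 to 135895 peaks, of which 1.68% to 1.93% lay off chromosomes 1 to 19. No read totals are given, so total depth is unknown. The lowest recovered pileup of a called peak was 8 reads in Ezh2-Y726D replicate 1, 9 in GFP replicate 2 and 10 or 11 in the other lists. Groups and replicates came from the sample titles.

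The regions and lists were chosen with earlier results of these data known. Pileup k and background λ were solved from fold = (k + 1)/(λ + 1) and the Poisson p, added after the data were seen. The genome-wide background was the most common λ of a list (2.39 to 3.74 reads), and λ within 1.02 times of it counted as at that level. limma 3.58.1 (R 4.3.3) was fitted to normal scores of within-list ranks, all 8 samples in 1 fit. On simulated data with 200 of 68278 regions shifted by 2 units in Ezh2-Y726D against GFP it recovered 100%, with 12 other calls and 0 without shifts. The median difference between these groups in the stepping regions was 0.432 units, and recovery at that size was not simulated. Exact tests enumerated all splits (Python 3.11.15). Replicate numbers were not used to pair samples in the main fit (alternatives below).

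Named were the 12 regions with the largest smaller gap, the 8 largest at gene ends (1 kb, RefSeq genes without strand), the genes with the most regions, up to 2 per list and those beside the threshold. Some regions this rule names are not reported here. The planned motif windows around summits needed a genome and were not run. RefSeq promoters were searched instead, none on chromosome 18. Alternatives were other ranks, filters, distances and samples.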

Additional observations from a re-analysis of the deposited data

How the results depend on the processing

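The number of stepping regions was 1400 by −log10 p and by −log10 q, but 774 of the 1440 were among them. By recovered pileup 2009 stepped, 579 of them among the 1440. It was 795 where a peak had to cover 0.5 of the region, 2334 by the fold itself, and 1997 to 2354 with 1 library left out, where fewer values had to be in order and 1439 or 1440 of the 1440 were kept. Leaving out any GFP library, Ezh2 replicate 3 or either Ezh2-Y726D library moved it by over 1.5 times. Of 53 named regions, 12 kept the order by pileup, 40 lost it and 1, in Lrrfip1, turned to the opposite order (smaller gap of -4.36 points). By −log10 p 33 kept it and 20 lost it, among them those at Fgr and Slc6a16, and all 53 kept it with any 1 library left out.

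For limma calls near stepping regions, the difference from all shared regions for Ezh2-Y726D above Ezh2 was -0.456 points by −log10 p, -0.555 by −log10 q, 3.97 with lists of equal length, 5.24 at a −log10 q of at least 5, -0.648 within 50 kb and -1.04 to -0.0116 with 1 library left out. All shared regions again include the stepping regions, more of them with 1 library left out, so these differences are not between like sets. For Ezh2 below GFP it was 1.09 with lists of equal length and -0.665 to -0.0112 with 1 library left out, and for Ezh2-Y726D above GFP -0.39 to 0.106. Deviations of same-numbered samples were weakly correlated at most (|r| at most 0.049). By the numbers in the peak names r was positive in every such pair, from 0.00269 to 0.0490. With the replicate block the differences for Ezh2-Y726D above GFP, Ezh2 below GFP and Ezh2-Y726D above Ezh2 were -0.0365, -0.158 and 0.409 points, and with the block by peak-name numbers (2 and 3 for Ezh2-Y726D replicates 1 and 2) 0.00118, -0.129 and 0.945. Over all regions, calls fell from 2441 to 1318 for Ezh2-Y726D above GFP and from 1955 to 1287 for Ezh2 below GFP with that block. They fell to 972, 536 and, from 4784, 2305 where a peak covered 0.5 of the region and fewer regions were tested. Without Ezh2-Y726D replicates 1 and 2 in turn they were 273 and 489 for Ezh2-Y726D above GFP and 1609 and 1746 for Ezh2-Y726D above Ezh2, the lone library assumed to vary like the rest. For Ezh2-Y726D above GFP they were 1452 and 1354 without GFP replicates 1 and 2. For Ezh2 below GFP they were 1101, 661 and 670 without GFP replicates 1, 2 and 3, and 1165 and 1030 without Ezh2 replicates 1 and 3.

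The weaker neighbours kept the direction of all 3 differences with lists of equal length, at a −log10 q of at least 5 and within 5 or 50 kb, and were -21.1 to -17.6, -8.07 to -6.09 and -28.7 to -25.3 points with 1 library left out. Around regions whose pileup stepped, GFP minus Ezh2 turned to 1.74 points (exact permutation p = 0.3). The cause of these changes was not tested. At 3 kb, 27.4% of stepping regions lay at a gene end. Total depth is unknown, and pileups of 20 to 40 reads limit single regions.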
